A study of Homo sapiens and Mus musculus with 27 samples.

Results

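DNA replication and nucleotide synthesis genes were followed across breast cancer cells that carried an MKL1 or caMKL1 construct or that differed in expression of LifeAct. The set holds 49 genes, taken by symbol regardless of letter case, among 59453 names in the human count tables and 55367 names in the mouse table. All 49 were found in each of the 3 tables and all 49 passed the filter on low counts in each. RNA was sequenced from 27 libraries in 9 groups of 3. LM2, a human breast cancer line, and 4T1, a mouse breast cancer line, were each measured as caMKL1-overexpressing cells (labelled caMKL1 OE), as cells overexpressing MKL1 (labelled WT MKL1 OE) and as control cells, from polyA-selected RNA. LM2 cells labelled LifeAct negative (treatment control), low and high were measured from RNA depleted of ribosomal RNA. LifeAct is a peptide that binds filamentous actin and is used as its reporter. All groups share the genotype label WT except the caMKL1 cells, whose genotype label ends in a different digit in each replicate (caMKL1, caMKL2, caMKL3) although every title and treatment names caMKL1. What distinguishes caMKL1 from MKL1, the promoter of either construct and whether a group is 1 clone are not given in the sources used here, nor is how LifeAct levels were set apart. Nothing says that replicates came from separate cultures, so p-values measure the spread between these libraries, which may be technical.

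Replication starts at origins that are licensed in G1, when the origin recognition complex (ORC) with CDC6 and CDT1 loads the MCM2-7 helicase and geminin (GMNN) later blocks reloading. The kinase CDC7 with its activator DBF4, and MCM10, CDC45 and the GINS complex, turn the loaded helicase into a moving fork. Polymerases held by the PCNA clamp then copy DNA from deoxynucleotides that ribonucleotide reductase (RRM1, RRM2), thymidylate synthase (TYMS) and thymidine kinase (TK1) supply. Transcripts of many of these genes rise at the G1 to S transition under E2F factors, and are low in cells that have left the cycle. MKL1, whose gene is now named MRTFA, is an actin-regulated coactivator of serum response factor (SRF). In bulk RNA, fewer cells in S phase and less RNA of these genes per cell cannot be told apart.

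The construct labels were checked on the MRTFA row, which averaged 218 CPM (counts scaled to library size by the TMM method within each table) in LM2 caMKL1 cells, 162 CPM in LM2 MKL1 cells and 10.8 CPM in LM2 control cells. Mouse Mrtfa averaged 624 CPM in 4T1 caMKL1, 2145 CPM in 4T1 MKL1 and 39.2 CPM in 4T1 control cells. Library totals ran from 15581289 to 32147377 counts. Replicate 1 of LM2 caMKL1 and replicate 1 of LM2 MKL1 stood apart from the other libraries of their groups, with a mean chi-square per gene of 37.0 to 53.0 against them, where pairs within the 4T1 and LifeAct groups had 1.39 to 6.87 and replicates 2 and 3 of LM2 MKL1 had 21.6. Mitochondrial genes took 7.76% of counts in that caMKL1 library and 13.4% and 13.6% in the other two. LM2 cells held almost no CDH1 transcript (at most 0.471 CPM), while 4T1 control cells held 670 CPM of Cdh1. Other epithelial markers were present in LM2, with KRT8 at 174 CPM and KRT18 at 138 CPM in LM2 control cells. KRT8 averaged 716 CPM in LM2 caMKL1 cells, above LM2 control cells. In 4T1 control cells it averaged 505 CPM, also above LM2 control cells. Its level in 4T1 caMKL1 cells was above that in LM2 caMKL1 cells, in tables that were scaled separately. The mesenchymal-like markers VIM, ZEB1 and CDH2 summed to 1764.5 CPM in LM2 control and 1509.0 CPM in 4T1 control cells, mostly VIM. Of the fibroblast markers, PDGFRA averaged 0.0135 CPM in LM2 control and 27.6 CPM in 4T1 control cells, and DCN 0 and 0.0342 CPM. COL1A1 (6 and 3.04 CPM), LUM (2.04 and 0 CPM) and COL3A1 (0.0918 and 0 CPM) went the other way. Leukocyte PTPRC stayed at or under 0.616 CPM in every group except LifeAct negative (2.39 CPM), and of the endothelial markers CDH5 stayed at or under 0.464 CPM in all, VWF at or under 6.84 CPM and PECAM1 at or under 92.5 CPM.

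Promoter sequence is shown for 5 human genes that mark the range of responses described below. They are MCM2 and CDC6, which hold E2F-like letters, MCM10 and RRM2, which were among the 3 largest falls in LM2 caMKL1 cells and hold none of the exact strings searched, and TK1, whose fall did not pass the test there. Each is a RefSeq window (GRCh38.p14) of 300 bases, 250 before the annotated start and 50 from it on, written 5′ to 3′ on the gene's strand, with E2F-like letters (TTTCCCGC, TTTCGCGC, TTTGCCGC or TTTGGCGC) and CCAAT in capitals on either strand.
MCM2, chr3:127598161-127598460, plus strand: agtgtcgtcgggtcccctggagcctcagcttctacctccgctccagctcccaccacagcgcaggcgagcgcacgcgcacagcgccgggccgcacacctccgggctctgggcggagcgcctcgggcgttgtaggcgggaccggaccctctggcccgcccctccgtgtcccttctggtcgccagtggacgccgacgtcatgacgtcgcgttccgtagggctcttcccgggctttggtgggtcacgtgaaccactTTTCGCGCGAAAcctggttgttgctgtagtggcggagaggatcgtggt
CDC6, chr17:40287629-40287928, plus strand: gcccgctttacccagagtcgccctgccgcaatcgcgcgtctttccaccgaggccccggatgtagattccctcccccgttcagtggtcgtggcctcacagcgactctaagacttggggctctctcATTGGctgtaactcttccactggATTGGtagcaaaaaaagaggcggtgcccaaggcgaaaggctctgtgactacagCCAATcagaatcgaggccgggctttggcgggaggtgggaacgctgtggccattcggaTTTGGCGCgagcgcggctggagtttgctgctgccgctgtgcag
MCM10, chr10:13161308-13161607, plus strand: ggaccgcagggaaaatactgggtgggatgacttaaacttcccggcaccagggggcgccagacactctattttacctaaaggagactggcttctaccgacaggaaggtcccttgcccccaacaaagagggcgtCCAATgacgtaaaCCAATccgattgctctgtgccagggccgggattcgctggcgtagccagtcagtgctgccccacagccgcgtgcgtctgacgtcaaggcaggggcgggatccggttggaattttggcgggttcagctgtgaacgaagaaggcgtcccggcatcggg
RRM2, chr2:10122489-10122788, plus strand: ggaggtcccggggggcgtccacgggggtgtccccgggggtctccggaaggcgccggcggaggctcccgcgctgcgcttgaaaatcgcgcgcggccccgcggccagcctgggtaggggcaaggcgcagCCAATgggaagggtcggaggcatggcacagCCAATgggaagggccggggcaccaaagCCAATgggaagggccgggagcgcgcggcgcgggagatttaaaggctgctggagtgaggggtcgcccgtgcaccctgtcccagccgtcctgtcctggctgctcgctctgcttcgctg
TK1, chr17:78187155-78187454, minus strand: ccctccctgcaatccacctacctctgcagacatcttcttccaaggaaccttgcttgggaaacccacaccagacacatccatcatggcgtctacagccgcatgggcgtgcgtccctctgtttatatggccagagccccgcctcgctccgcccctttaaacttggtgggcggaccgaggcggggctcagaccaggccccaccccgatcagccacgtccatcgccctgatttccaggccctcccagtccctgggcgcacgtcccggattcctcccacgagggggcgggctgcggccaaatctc

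The MCM2 window holds 2 overlapping E2F-like matches and 0 CCAAT, the CDC6 window 1 and 3. The MCM10 window holds 0 E2F-like matches and 2 CCAAT, the first RRM2 window 0 and 3, and the TK1 window shown 0 and 0. RRM2 and TK1 each have 2 annotated windows, and the other TK1 window holds CCAAT. Of the 42 members with a RefSeq window, 23 held E2F-like letters, and 24 of their 58 windows did (41.4%), against 3.31% of all 35116 windows. CCAAT stood in 29 of the 58 member windows, against 34.6% of all windows. The letters TTTGAA, part of the cell cycle homology region of mitotic promoters, stood in 6.9% of member windows and 15.2% of all windows. The E2F-like matches lay close to the start, 25 of 32 within 100 bases of it, with a median offset of -37 bases. These are exact matches of letters and say nothing of binding. Near matches were not counted, such as the tttggcggg in the MCM10 and CDC6 windows shown, so a gene without a match may still hold a related site. DSCC1, MCM5, POLD3, MCM4, RPA2, RPA3 and GINS4 have no entry in the table used.

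The 49 genes together took a small share of each library that differed between groups. They held 0.117% ± 0.0095 of counts in LM2 caMKL1 cells, 0.467% ± 0.038 in LM2 MKL1 cells and 0.430% ± 0.039 in LM2 control cells (SD, n = 3 each, as throughout). In 4T1 the share was 0.265% ± 0.0025 in caMKL1, 0.405% ± 0.0077 in MKL1 and 0.517% ± 0.0024 in control cells. Over the LifeAct series it was 0.145% ± 0.0005 in negative, 0.323% ± 0.0016 in low and 0.377% ± 0.0075 in high cells. The caMKL1 libraries lay below both other groups in each line, MKL1 and control overlapped in LM2, and the 3 LifeAct groups did not overlap.

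**Figure D1:**
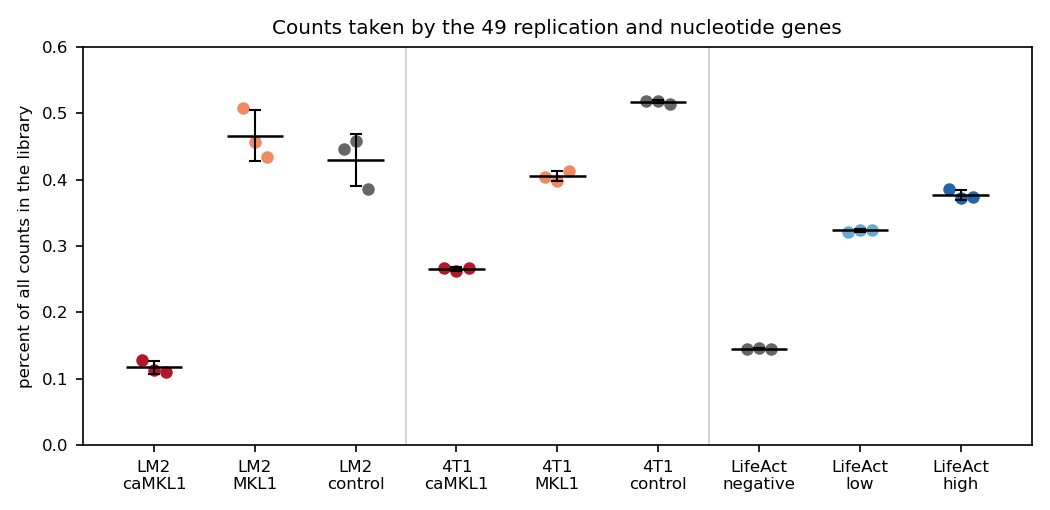
Percent of all counts in a library that fell on the 49 genes (vertical axis), for 9 groups (horizontal axis); points are libraries, bars the mean and SD of 3. The LM2 caMKL1 mean is 0.117% against 0.430% in LM2 control cells, and LifeAct cells run 0.145%, 0.323% and 0.377% from negative to high.

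In LM2 cells, caMKL1 was set against control to ask how the construct changes expression. Nearly the whole set fell: 48 of the 49 genes were lower and 0 higher at an adjusted p under 0.05 (edgeR's quasi-likelihood test, Benjamini-Hochberg over all genes), where 33% of all 18893 tested genes were lower, 31.9% higher and 64.9% either (49.1% lower and 21.9% higher with library totals as the only scaling). The median member was 3.70-fold lower (log2 ratio -1.89), beside a median of -0.05 over all genes. Of the members called, 40 were at least 2-fold lower, a cut not counted over all genes. Log2 ratios ran from -2.83 for MCM10 to -0.07 for TK1, the 1 gene that did not pass. In 48 genes every caMKL1 library lay below every control library, as in 36.7% of all genes. With the 2 LM2 libraries that stood apart left out, 49 members were lower and the median was -1.892.

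**Figure D2:**
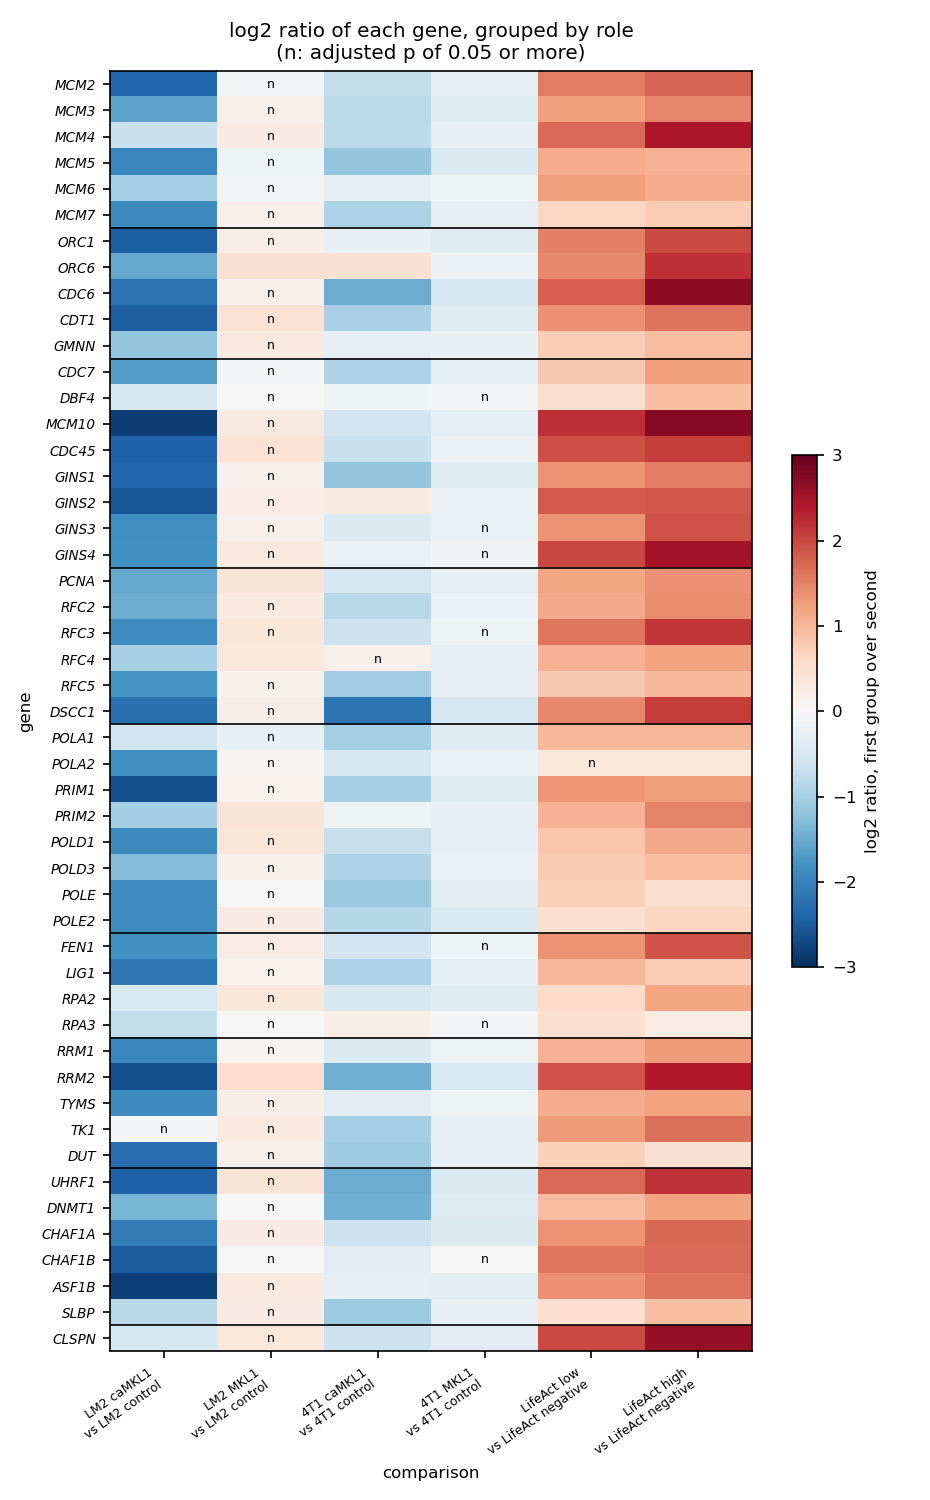
Log2 ratio of each of the 49 genes (rows, grouped by role) in the 6 comparisons with control or LifeAct negative cells (columns); blue is lower and red higher in the first group, and n marks an adjusted p of 0.05 or more. LM2 caMKL1 is blue in all rows but TK1, which is near white, LM2 MKL1 is pale, and both LifeAct columns are red.

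The 6 subunits of the MCM2-7 helicase all fell in LM2 caMKL1 cells, but by unequal amounts. MCM2 had 7.96, 5.08 and 4.07 CPM in caMKL1 libraries, against 32.7, 31.5 and 25.0 CPM in control libraries. Its log2 ratio was -2.36 ± 0.19 (SE; edgeR adjusted p = 2.61e-08), and 23.6% of its exon bases are shared with an antisense gene whose reads an unstranded count cannot separate. MCM4 had 97.7, 96.9 and 97.9 CPM in caMKL1, against 165, 161 and 138 CPM in control libraries, a log2 ratio of -0.67 ± 0.093 (edgeR adjusted p = 1.17e-05). The groups did not overlap for either subunit. MCM5 (-1.95), MCM7 (-1.91), MCM3 (-1.57) and MCM6 (-1.01) lay between them on the log2 scale. Per kilobase of exon, the ratio of MCM2 to MCM4 was 0.0865 ± 0.0305 in caMKL1, 0.232 ± 0.0282 in MKL1 and 0.283 ± 0.0137 in control cells.

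**Figure D3:**
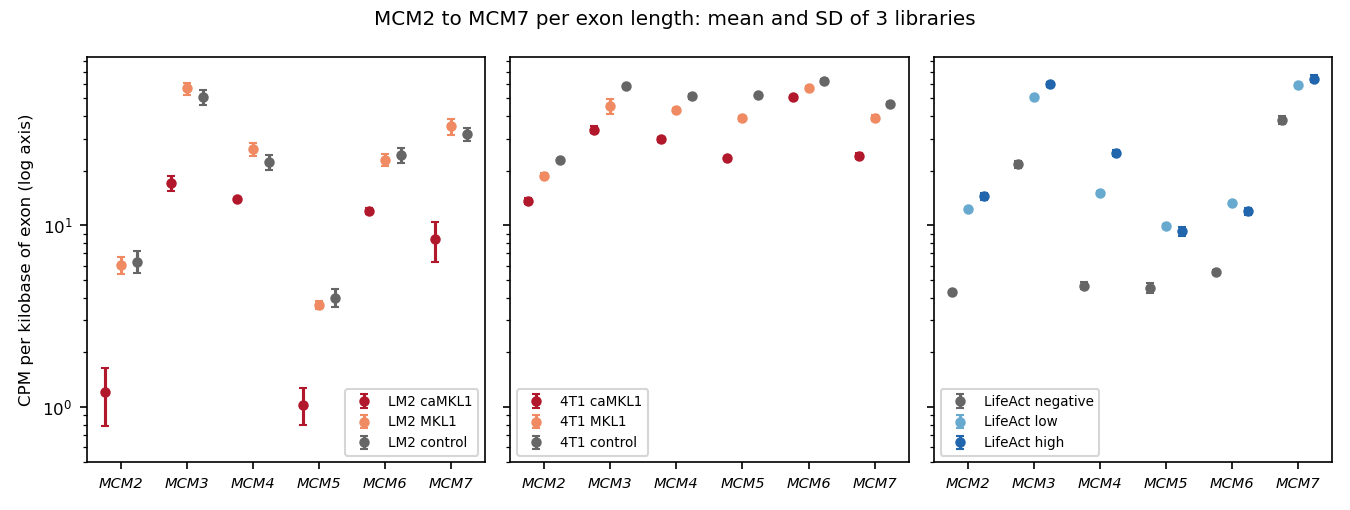
CPM per kilobase of exon (log axis) of MCM2 to MCM7 in LM2, 4T1 and LifeAct tables, mean and SD of 3 libraries per group; tables were scaled separately. LM2 caMKL1 points lie below LM2 control for each subunit, with the narrowest gap at MCM4, and LifeAct negative points lie below low and high for each.

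All 5 origin licensing genes fell, with a median log2 ratio of -2.21. CDT1, which brings the helicase to origins, was counted at 1.19, 1.32 and 1.29 CPM in caMKL1 libraries, against 8.61, 6.99 and 5.62 CPM in control libraries. CDC6, its partner in loading, had 34.6, 33.6 and 30.0 CPM in caMKL1, against 166, 163 and 127 CPM in control libraries. ORC1, the largest ORC subunit, had 4.46, 4.23 and 4.67 CPM in caMKL1, against 24.2, 27.2 and 21.2 CPM in control libraries. The groups stood apart for each of the 3, with log2 ratios of -2.48 ± 0.22, -2.21 ± 0.13 and -2.44 ± 0.13 and edgeR adjusted p of 8.57e-08, 5.64e-10 and 2.17e-10. Geminin, the inhibitor of CDT1, had 32.8, 41.4 and 38.08 CPM in caMKL1, against 90.1, 88.7 and 77.7 CPM in control libraries, the smallest fall of the licensing genes at -1.19 ± 0.12 (edgeR adjusted p = 2.40e-07). CDT1 to GMNN per kilobase was 0.0305 ± 0.00203 in caMKL1 and 0.0738 ± 0.0107 in control cells. ORC6 fell too (log2 ratio -1.55).

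Among 8 genes of origin firing and fork assembly all were lower, led by MCM10. This factor, which helps the loaded helicase to start unwinding, had 12.2, 11.2 and 13.2 CPM in caMKL1, against 95.1, 91.9 and 72.0 CPM in control libraries. Every caMKL1 value lay below every control value, with a log2 ratio of -2.83 ± 0.12 (edgeR adjusted p = 1.23e-11). CDC45, part of the active helicase, had 3.499, 4.14 and 5.01 CPM in caMKL1, against 24.5, 23.8 and 18.9 CPM in control libraries (log2 ratio -2.42 ± 0.17). GINS2 (log2 ratio -2.55) and GINS1 (-2.35) fell most within the GINS complex. CDC7 fell by more than its activator: its log2 ratio was -1.66, and that of DBF4 -0.49. DBF4 had 82.1, 97.3 and 97.1 CPM in caMKL1, against 131, 133 and 122 CPM in control libraries, so the groups were apart although the fall was small.

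The clamp PCNA had 57.3, 57.6 and 53.7 CPM in caMKL1 libraries, against 174, 178 and 137 CPM in control libraries (log2 ratio -1.54 ± 0.12; edgeR adjusted p = 1.03e-08). Its loaders RFC2 to RFC5 and DSCC1, a subunit of an alternative loader, fell as well, from -2.24 for DSCC1 to -0.99 for RFC4. All 8 genes of the replicative polymerases and primase were lower. The catalytic primase subunit PRIM1 had 5.15, 5.60 and 6.01 CPM in caMKL1, against 36.4, 37.9 and 29.6 CPM in control libraries, a log2 ratio of -2.63 ± 0.13 (edgeR adjusted p = 5.14e-11). Other genes share 22.2% of the exon bases of PRIM1. POLA1, the polymerase that extends the primer, had 39.3, 43.7 and 43.0 CPM in caMKL1, against 62.7, 62.9 and 60.6 CPM in control libraries (-0.56 ± 0.11). Of the polymerase genes POLA1 fell least, and PRIM1 most. POLA2 was low in LM2, at 1.19, 0.47 and 0.298 CPM in caMKL1 and 2.15, 2.70 and 2.41 CPM in control libraries. Other genes share 39.4% of its exon bases. Of the 4 genes for lagging strand processing and single-strand binding, LIG1, the ligase that joins Okazaki fragments (-2.18), and FEN1, the flap nuclease (-1.83), fell by more than RPA3 (-0.74) and RPA2 (-0.46) of the single-strand binding complex.

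Deoxynucleotide synthesis held both one of the deepest falls and the only gene that did not pass. RRM2, the subunit of ribonucleotide reductase that varies over the cycle, had 36.3, 38.0 and 32.9 CPM in caMKL1, against 230.5, 251 and 188 CPM in control libraries. RRM1, the larger subunit, had 75.4, 72.2 and 68.6 CPM in caMKL1, against 281, 300.0 and 252 CPM in control libraries. TYMS, which makes dTMP, had 12.2, 11.9 and 10.9 CPM in caMKL1, against 44.7, 47.9 and 39.0 CPM in control libraries, and 47.5% of its exon bases are shared with ENOSF1 and TYMSOS. None of the 3 overlapped between groups, at log2 ratios of -2.64 ± 0.13, -1.95 ± 0.093 and -1.91 ± 0.13 (edgeR adjusted p = 8.60e-11, 3.87e-11 and 2.92e-09). TK1, the salvage kinase for thymidine, had 36.0, 22.5 and 22.8 CPM in caMKL1, against 31.5, 30.2 and 23.8 CPM in control libraries. Its groups overlapped, since caMKL1 replicate 1 was above all 3 control libraries, and the log2 ratio was -0.067 ± 0.22 (edgeR adjusted p = 0.8). Without that library alone TK1 came to -0.3214 (edgeR adjusted p = 0.198), and without replicate 1 of LM2 MKL1 as well to -0.321 (edgeR adjusted p = 0.0176).

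All 6 genes of chromatin assembly and DNA methylation at the fork were lower. ASF1B, a histone chaperone, had 4.19, 2.96 and 3.48 CPM in caMKL1 libraries, against 24.3, 27.6 and 22.1 CPM in control libraries, a log2 ratio of -2.79 ± 0.17 (edgeR adjusted p = 8.86e-10). UHRF1, which reads hemimethylated DNA, had 17.2, 17.4 and 17.4 CPM in caMKL1, against 101, 97.7 and 79.8 CPM in control libraries (-2.42 ± 0.14). DNMT1, the maintenance methyltransferase that UHRF1 recruits, had 135, 153 and 149.8 CPM in caMKL1, against 375, 396 and 366 CPM in control libraries (-1.38 ± 0.11). The groups were apart for all 3, and UHRF1 fell by more than DNMT1. SLBP, which binds the stem-loop of histone mRNA, had 40.3, 45.2 and 41.5 CPM in caMKL1, against 76.4, 83.5 and 65.5 CPM in control libraries (-0.83 ± 0.12). CLSPN, a mediator of the fork checkpoint, had 112, 128 and 130.2 CPM in caMKL1, against 186, 178 and 154 CPM in control libraries (-0.48 ± 0.11; edgeR adjusted p = 0.000848), with no overlap.

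LM2 MKL1 cells did not share this fall. Against control, 5 members were higher (RRM2, ORC6, PCNA, PRIM2 and RFC4), 0 lower and 44 did not pass, where 7.25% of all genes were higher, 4.74% lower and 12% either. The median member log2 ratio was 0.19, beside 0.01 over all genes, and 16 members reached an unadjusted p under 0.05, as did 26.5% of all genes. With library totals the split of all genes was 4.86% higher and 6.57% lower. RRM2 had 357, 344 and 263 CPM in MKL1, against 230.5, 251 and 188 CPM in control libraries, a log2 ratio of 0.53 ± 0.12 (edgeR adjusted p = 0.0121). ORC6 had 72.5, 56.0 and 49.4 CPM in MKL1, against 45.7, 46.5 and 37.0 CPM in control libraries (0.46 ± 0.14; edgeR adjusted p = 0.0403). PCNA had 246, 204 and 193 CPM in MKL1, against 174, 178 and 137 CPM in control libraries (0.39 ± 0.11; edgeR adjusted p = 0.0334). In all 3 the lowest MKL1 library stayed above the highest control library. POLA1 had the lowest ratio, -0.22 ± 0.11 (edgeR adjusted p = 0.204), with 45.6, 61.7 and 53.1 CPM in MKL1 and 62.7, 62.9 and 60.6 CPM in control libraries. The count of 5 moved with 1 library: it was 0 without LM2 control replicate 3, 1 without LM2 control replicate 1, 2 without LM2 control replicate 2 or LM2 MKL1 replicate 1, 3 without LM2 caMKL1 replicate 2 and 10 without LM2 MKL1 replicate 3. DESeq2 called 9. RRM2 did not pass without LM2 control replicate 3 (edgeR adjusted p = 0.0866), and the other 4 did not pass with library totals.

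Between the constructs in LM2, caMKL1 cells were again lower than MKL1 cells in 48 of 49 members, where 31.9% of all genes were lower, 32.6% higher and 64.5% either (45.7% lower and 23.4% higher with library totals), with a median log2 ratio of -2.03. RRM2 (-3.17 ± 0.14), MCM10 (-3.10 ± 0.12) and ASF1B (-3.08 ± 0.17) lay furthest down. TK1 did not pass (-0.36 ± 0.22; edgeR adjusted p = 0.158), with 36.0, 22.5 and 22.8 CPM in caMKL1 and 48.7, 25.8 and 29.7 CPM in MKL1 libraries. It did pass with library totals (-0.68; edgeR adjusted p = 0.0242), with no filter (-0.41; edgeR adjusted p = 0.00431), with the replicate block (-0.35; edgeR adjusted p = 0.0185) and without caMKL1 replicate 1 (-0.61; edgeR adjusted p = 0.0195), without MKL1 replicate 2 (-0.54; edgeR adjusted p = 0.04) or without both replicates 1 (-0.29; edgeR adjusted p = 0.0448). These 3 LM2 comparisons share libraries.

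In mouse 4T1 cells caMKL1 also went with lower levels of most of the set, by smaller amounts. Against control, 45 members were lower, 3 higher and 1 did not pass, where 35.8% of all 16297 tested genes were lower, 36.2% higher and 72% either (46.5% lower and 27.8% higher with library totals). The median log2 ratio was -0.70 (1.62-fold lower), beside -0.02 over all genes. Of the members called, 12 were at least 2-fold lower, a cut not counted over all genes. Dscc1 fell most, with 3.43, 3.25 and 2.98 CPM in caMKL1, against 13.2, 14.9 and 15.7 CPM in control libraries (-2.18 ± 0.11; edgeR adjusted p = 1.30e-14). Uhrf1 had 95.5, 96.6 and 99.5 CPM in caMKL1, against 271, 279 and 270.2 CPM in control libraries (-1.49 ± 0.036). Cdc6 had 18.2, 19.4 and 22.4 CPM in caMKL1, against 56.8, 56.1 and 54.4 CPM in control libraries (-1.48 ± 0.059). The caMKL1 libraries lay far below control for these 3. Rrm2 had 67.7, 62.3 and 69.9 CPM in caMKL1, against 183, 187 and 184 CPM in control libraries (-1.47 ± 0.041). Dnmt1 had 188, 191 and 189.6 CPM in caMKL1, against 534, 513 and 510.1 CPM in control libraries (-1.45 ± 0.029). Both were lower in every caMKL1 library than in any control library.

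Every Mcm2 to Mcm7 gene fell in 4T1 caMKL1 cells, from -1.15 for Mcm5 to -0.29 for Mcm6. Mcm2 had 92.2, 92.5 and 98.9 CPM in caMKL1, against 159.6, 158 and 156 CPM in control libraries (-0.74 ± 0.036), and its ratio to Mcm4 per kilobase was 0.457 ± 0.0111 in caMKL1 and 0.443 ± 0.0176 in control cells. Tk1 fell here, with 61.8, 63.9 and 57.1 CPM in caMKL1, against 123, 121 and 127 CPM in control libraries (-1.02 ± 0.041; edgeR adjusted p = 8.58e-17). Slbp likewise had 52.1, 52.8 and 52.1 CPM in caMKL1, against 109, 115 and 110.1 CPM in control libraries (-1.09 ± 0.038). Licensing genes were uneven. Cdt1 had 48.4, 48.7 and 51.8 CPM in caMKL1, against 105, 90.4 and 98.6 CPM in control libraries (-0.98 ± 0.054), while Gmnn (-0.28 ± 0.056) and Orc1 (-0.23 ± 0.071) fell by less, and Orc1 did not pass without caMKL1 replicate 2 (edgeR adjusted p = 0.0583). Pcna (-0.51 ± 0.039), Rrm1 (-0.44 ± 0.03), Tyms (-0.35 ± 0.041), Mcm10 (-0.58 ± 0.044) and Cdc45 (-0.66 ± 0.057) all passed the test as lower.

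The 3 genes that were higher in 4T1 caMKL1 cells were Orc6, Gins2 and Rpa3. Orc6 had 73.6, 64.1 and 70.3 CPM in caMKL1, against 48.7, 50.9 and 51.9 CPM in control libraries (0.45 ± 0.051; edgeR adjusted p = 2.62e-08). Gins2 had 25.1, 25.4 and 29.1 CPM in caMKL1, against 23.97, 22.0 and 20.2 CPM in control libraries (0.27 ± 0.072; edgeR adjusted p = 0.002), and 67.3% of its exon bases overlap Gse1 on the other strand. With library totals as the only scaling Gins2 no longer passed, at 0.083 (edgeR adjusted p = 0.305). Rpa3, part of the single-strand binding complex, had 30.0, 30.0 and 29.7 CPM in caMKL1, against 25.5, 27.2 and 27.1 CPM in control libraries (0.17 ± 0.054), a direction that turned to -0.013 with library totals and did not pass with no filter (edgeR adjusted p = 0.0702). Orc6 stayed higher under that scaling. Rfc4 did not pass (0.15 ± 0.069; edgeR adjusted p = 0.057), but passed as higher with DESeq2 size factors (0.17; edgeR adjusted p = 0.0339), the replicate block (0.0417), only the 2 groups compared (0.0437) and in 3 of 9 fits with 1 library left out (0.0297 without control replicate 2, 0.0315 without caMKL1 replicate 2 and 0.043 without MKL1 replicate 3). Cd68, a macrophage marker, averaged 60.7 CPM in 4T1 caMKL1 and 6.25 CPM in control cells. Ptprc stayed at 0.0123 CPM in caMKL1 and 0.0253 CPM in control cells. The endothelial marker VWF (mouse Vwf) averaged 6.84 CPM in caMKL1, 1.02 CPM in MKL1 and 0.0467 CPM in control cells. The other endothelial markers, Pecam1 and Cdh5, did not follow that order. Both stayed under 1 CPM in every 4T1 group and were lowest in MKL1 cells. From control to caMKL1 cells Pecam1 was slightly higher and Cdh5 slightly lower. The part of such markers in the result was not tested.

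**Figure D4:**
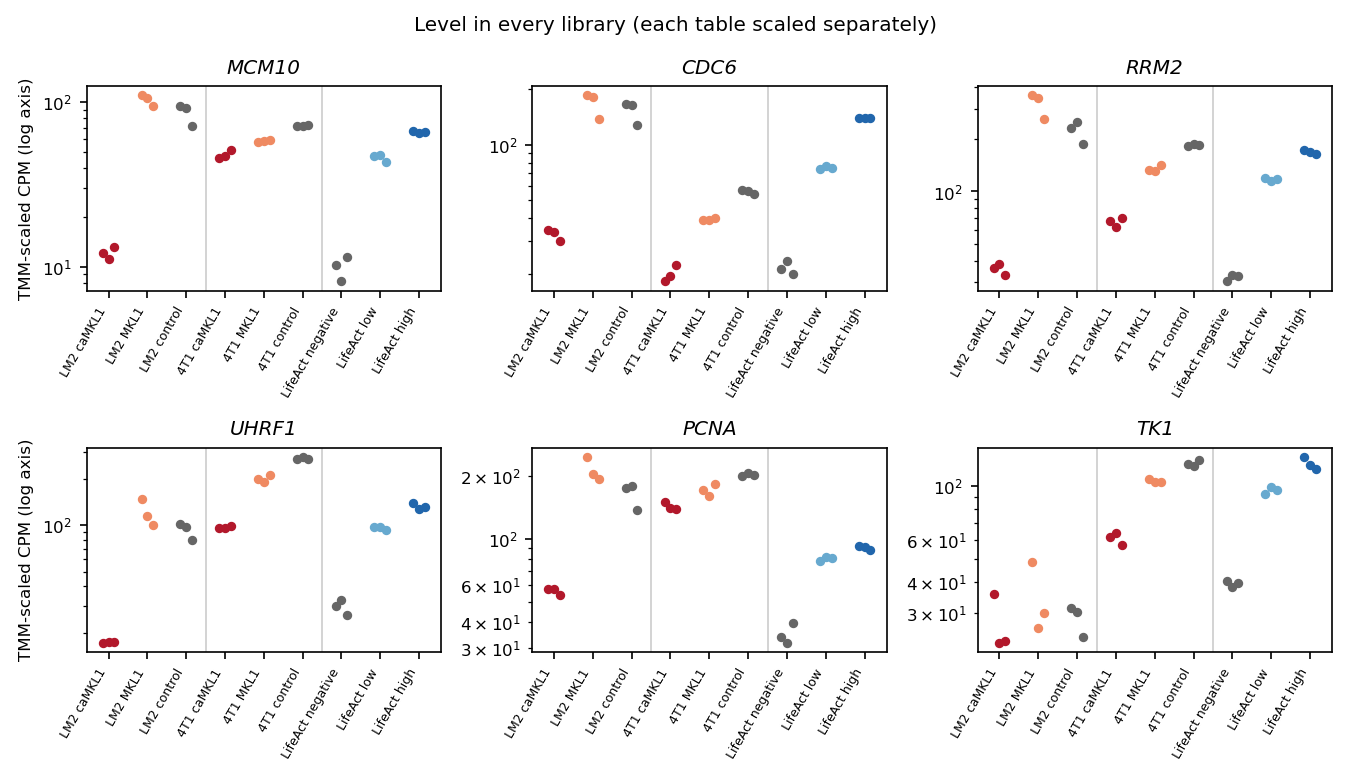
TMM-scaled CPM (log axis) of 6 genes in every library of the 9 groups; points are libraries, and each table was scaled separately. LM2 caMKL1 libraries sit below LM2 control for MCM10, CDC6, RRM2, UHRF1 and PCNA but overlap control for TK1, which in 4T1 is lower in caMKL1.

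In 4T1 MKL1 cells the differences from control were small and downward. Here 42 members were lower, 0 higher and 7 did not pass, where 15% of all genes were lower, 19.3% higher and 34.3% either (23.7% lower and 14.3% higher with library totals), and the median log2 ratio was -0.26, beside -0.003 over all genes. Dscc1 (-0.51 ± 0.093), Cdc6 (-0.50 ± 0.054) and Pole2 (-0.45 ± 0.067) fell most. Cdc6 had 39.3, 39.2 and 40.1 CPM in MKL1, against 56.8, 56.1 and 54.4 CPM in control libraries, and Rrm2 had 133, 132 and 142 CPM in MKL1, against 183, 187 and 184 CPM in control libraries. Neither overlapped, though no member reached a 2-fold difference. Gins3, Rfc3, Fen1, Gins4, Rpa3, Dbf4 and Chaf1b did not pass, and 84.2% of the exon bases of mouse Fen1, counted at 4.85, 5.04 and 4.67 CPM in control libraries, are shared with other genes. Against MKL1 cells, caMKL1 cells had 39 members lower and 4 higher (Orc6, Gins2, Rfc4 and Rpa3), where 32.8% of all genes were lower, 33.8% higher and 66.6% either (41.1% lower and 27.8% higher with library totals), with Dscc1 the lowest at -1.67 ± 0.12. The spread between 4T1 libraries was small, with a biological coefficient of variation of 0.0345 against 0.118 in LM2.

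Whether the 2 lines differed was tested on the difference of the log2 ratios, 4T1 minus LM2, in 1 fit over 18 libraries and 13113 names matched by symbol. That fit was scaled by TMM over all 18 libraries, while the ratios of each line come from its own fit and scaling. The differences are therefore not exact subtractions of those ratios, and small ones can depend on the scaling. For caMKL1, 39 members had the higher ratio in 4T1 and 5 the lower, where 30.7% of all genes were higher, 29.6% lower and 60.3% either (42.4% higher and 20.1% lower with library totals). Of the 39, Orc6, Gins2, Rpa3 and Rfc4 had a ratio above 0 in 4T1, and the others had a smaller fall there than in LM2. Gins2 differed by 2.69 ± 0.21, Asf1b by 2.40 ± 0.17, Mcm10 by 2.12 ± 0.13 and Orc1 by 2.08 ± 0.15 (edgeR adjusted p = 2.78e-10, 1.16e-10, 5.17e-12 and 5.73e-11). The 5 in the other direction were Tk1 (-1.09 ± 0.24; edgeR adjusted p = 0.000452), Pola1 (-0.55 ± 0.12), Slbp (-0.39 ± 0.13), Clspn (-0.30 ± 0.12) and Mcm4 (-0.25 ± 0.10), of which Tk1 passed under every alternative. With library totals Clspn and Mcm4 turned to 0.051 and 0.094, and Pola1 (-0.20; edgeR adjusted p = 0.0933) and Slbp (-0.0435; edgeR adjusted p = 0.833) did not pass. Of 12 fits with 1 library left out, Clspn and Mcm4 each lost the call in 10, Slbp in 5 and Pola1 in 0. Dscc1, Dnmt1, Dbf4, Pold3 and Rpa2 did not pass. For Dscc1 the difference in the joint fit was -0.065 ± 0.17 and for Dnmt1 -0.20 ± 0.11. In the separate fits of each line their log2 ratios were -2.18 and -1.45 in 4T1 and -2.24 and -1.38 in LM2. For MKL1, 34 members were lower in 4T1 relative to LM2 and 0 higher, where 10.6% of all genes were lower, 9.32% higher and 19.9% either. With library totals 7 of the 34 did not pass. Of 12 fits with 1 library left out, MCM7 lost the call in 11, GINS4 and POLD1 in 10 each and RRM1 in 9. POLD3, POLE and RFC5 lost it in 8 each. RRM2 (-0.99 ± 0.14), CDT1 (-0.85 ± 0.17) and UHRF1 (-0.84 ± 0.14) differed most. Across the 49 genes the caMKL1 ratios of the lines had a Pearson correlation of 0.197 and a Spearman correlation of 0.193, given as a description of genes that share libraries within each line.

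In the LifeAct series the set was higher in low and high than in negative cells. All 49 members were higher in LifeAct high than in LifeAct negative cells, where 36% of all 21869 tested genes were higher, 35.2% lower and 71.1% either. The median member was 2.65-fold higher (log2 ratio 1.40), beside -0.03 over all genes. Of the members called, 36 were at least 2-fold higher, a cut not counted over all genes. LifeAct low cells had 48 members higher than negative cells and POLA2 not passed (0.31 ± 0.13), where 26% of all genes were higher, 23.6% lower and 49.6% either, with a median of 1.22. All 49 high groups and 48 low groups lay above the negative group without overlap, as did 35.8% and 28.9% of all genes. PECAM1 averaged 92.5 CPM in negative, 29.9 CPM in low and 7.47 CPM in high cells while CDH5 was at or under 0.324 CPM in each, and PTPRC averaged 2.39, 0.616 and 0.494 CPM; their part in the result was not tested.

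The 3 largest rises were those of MCM10, CDC6 and CLSPN. MCM10 had 10.2, 8.15 and 11.4 CPM in LifeAct negative, 47.1, 48.0 and 43.3 CPM in low and 66.9, 65.1 and 66.0 CPM in high libraries. CDC6 had 21.2, 23.4 and 20.04 CPM in negative, 73.6, 77.0 and 74.5 CPM in low and 139.9, 139 and 139 CPM in high libraries. CLSPN had 24.9, 23.5 and 20.6 CPM in negative, 88.8, 91.8 and 93.1 CPM in low and 142, 136 and 143 CPM in high libraries. In each the 3 groups climbed from negative to high without overlap, and high over negative came to 2.73 ± 0.082, 2.69 ± 0.057 and 2.61 ± 0.059 on the log2 scale (edgeR adjusted p = 8.72e-22, 2.82e-25 and 1.22e-24). ORC1 had 7.88, 8.41 and 7.64 CPM in negative, 21.8, 22.5 and 23.4 CPM in low and 32.6, 28.2 and 33.3 CPM in high libraries. CDT1 had 18.2, 15.4 and 15.1 CPM in negative, 43.1, 41.8 and 41.4 CPM in low and 54.6, 47.5 and 47.6 CPM in high libraries. GMNN had 21.9, 20.8 and 21.5 CPM in negative, 35.7, 35.2 and 35.4 CPM in low and 41.9, 39.0 and 41.8 CPM in high libraries. Geminin again moved less than CDT1, at 0.94 ± 0.066 against 1.62 ± 0.077. CDC45 rose by 2.08 ± 0.093, with 6.40, 6.02 and 5.38 CPM in negative, 22.2, 22.5 and 23.5 CPM in low and 24.7, 25.1 and 25.4 CPM in high libraries.

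MCM4 rose by 2.43 ± 0.052 and MCM2 by 1.75 ± 0.061, while MCM7 rose least of the helicase (0.75 ± 0.044). MCM2 had 20.03, 20.6 and 20.04 CPM in negative, 58.0, 59.1 and 57.6 CPM in low and 70.6, 64.7 and 68.5 CPM in high libraries, and its ratio to MCM4 per kilobase was 0.922 ± 0.0513, 0.822 ± 0.0115 and 0.576 ± 0.0149 over the same groups. RRM2 had 30.5, 33.1 and 32.6 CPM in negative, 119, 116 and 118 CPM in low and 174, 168 and 165 CPM in high libraries (2.40 ± 0.051 for high over negative). TK1 had 40.4, 38.2 and 39.7 CPM in negative, 92.5, 98.6 and 96.7 CPM in low and 132, 122 and 117 CPM in high libraries (1.65 ± 0.055). Both were ordered without overlap. RRM1 (1.28 ± 0.043), TYMS (1.22 ± 0.084), PCNA (1.36 ± 0.062), UHRF1 (2.17 ± 0.062), DNMT1 (1.21 ± 0.041) and SLBP (0.91 ± 0.057) were also higher in high than in negative cells. The smallest rises were RPA3 (0.22 ± 0.081; edgeR adjusted p = 0.0165) and POLA2 (0.31 ± 0.14; edgeR adjusted p = 0.0412). POLA2 did not pass under DESeq2 (adjusted p = 0.0828), and without LifeAct negative replicate 2 it came to 0.22 (edgeR adjusted p = 0.19).

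Between LifeAct high and low cells the differences were small and mixed. High cells had 33 members higher, 5 lower (RPA3, DUT, LIG1, POLE and MCM6) and 11 not passed, where 26.6% of all genes were higher, 23.7% lower and 50.3% either (21.3% higher and 29.4% lower with library totals), and the median log2 ratio was 0.25. CDC6 (0.89 ± 0.048), ORC6 (0.77 ± 0.065) and MCM4 (0.74 ± 0.046) differed most. MCM6 did not pass with DESeq2 (-0.12; adjusted p = 0.116), DESeq2 size factors (edgeR adjusted p = 0.0662), no filter (edgeR adjusted p = 0.088) or in 6 of 9 fits with 1 library left out. RPA3 had 26.2, 23.3 and 22.8 CPM in low and 19.9, 20.8 and 19.6 CPM in high libraries (-0.26 ± 0.076; edgeR adjusted p = 0.0602 without LifeAct low replicate 1), and DUT, which removes dUTP, had 36.4, 35.8 and 34.5 CPM in low and 30.5, 29.6 and 28.9 CPM in high libraries (-0.26 ± 0.064). Means ran from negative through low to high in 41 of the 49 genes, as in 32.2% of all genes, and in 35 of them the 3 groups did not overlap in that order, as in 16.3% of all genes. The 3 LifeAct comparisons share libraries.

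**Figure D5:**
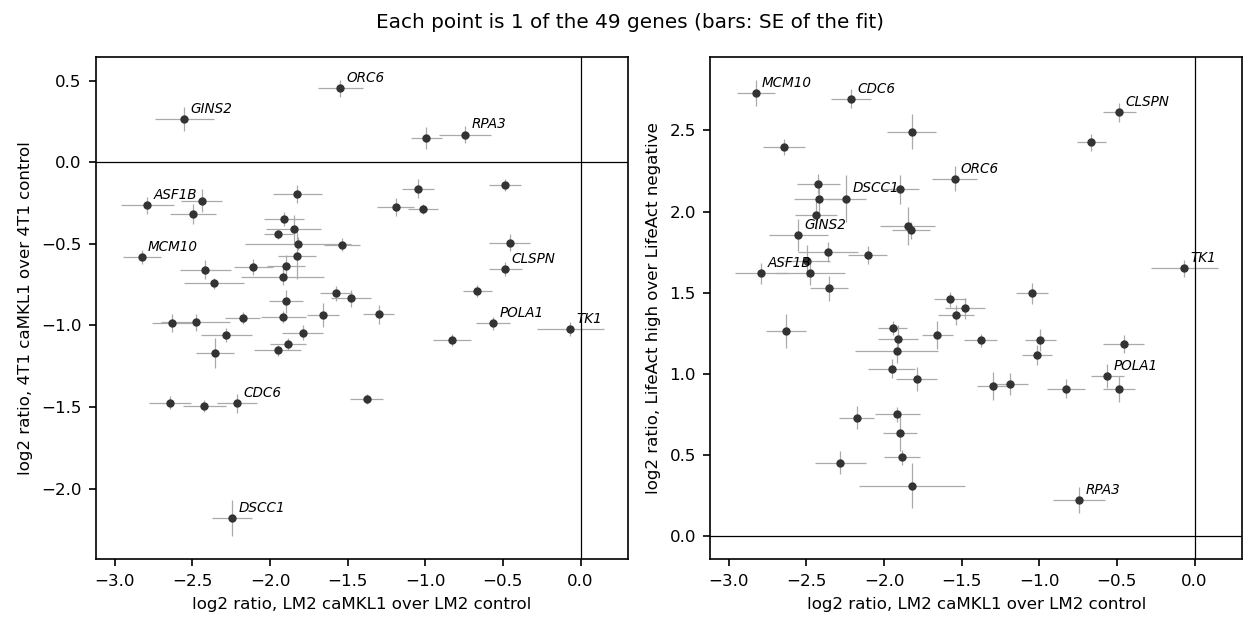
Log2 ratios of the 49 genes (points, with SE of the fit) in LM2 caMKL1 over LM2 control (horizontal axes) against 4T1 caMKL1 over 4T1 control (left) and LifeAct high over LifeAct negative (right). Nearly all points are below 0 on both axes at left apart from GINS2, ORC6, RPA3 and RFC4, and all lie above 0 on the vertical axis at right.

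Set side by side, 44 members were lower with caMKL1 in both lines, as were 20.5% of the 10361 names tested in both, and 48 were lower with caMKL1 in LM2 and higher in LifeAct high cells, as were 14.6% of 17703 names. MCM10 and RRM2 were among the members that moved most in LM2 caMKL1 and in LifeAct high cells, in opposite directions. CLSPN and MCM4, by contrast, were among the 5 largest LifeAct rises (2.61 and 2.43) and the smaller LM2 caMKL1 falls (-0.48 and -0.67). Over the 49 genes the correlation of these 2 comparisons was -0.254 (Pearson) and -0.327 (Spearman), between experiments that also differ in RNA selection. Members with and without an exact match to the E2F-like strings searched had median log2 ratios of -1.90 and -1.92 in LM2 caMKL1, and of 1.24 and 1.62 in LifeAct high cells. Per kilobase of exon, PCNA was the most abundant member in all 6 LM2 and 4T1 groups, at 40.0 ± 1.54 CPM per kilobase in LM2 caMKL1 and 116 ± 16.1 in LM2 control cells. RRM2 to RRM1 per kilobase was 0.229 ± 0.0125 in LM2 caMKL1 and 0.371 ± 0.0226 in LM2 control cells, 1.59 ± 0.064 in 4T1 caMKL1 and 3.25 ± 0.0257 in 4T1 control cells, and 0.186 ± 0.00586, 0.332 ± 0.00921 and 0.403 ± 0.0175 from LifeAct negative to high. The annotated exon bases of RRM2 and RRM1 are 9153 and 4233 in human, and 2771 and 11012 in mouse. These ratios can therefore be read between groups of a line but not between human and mouse cells. Gene names with same-named pseudogenes, which include PCNA, RRM2, DUT and TYMS among 11 human members, may lose reads to them. Over 10% of exon bases are shared with other genes in 8 human and 8 mouse members.

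Other genes of the pathway and of the cell cycle were counted in 5 lists, to be read beside the shares of all genes. In LM2 caMKL1 cells 33% of all genes were lower and 31.9% higher, in 4T1 caMKL1 cells 35.8% and 36.2%, and in LifeAct high cells 35.2% and 36%. In LM2 caMKL1 cells, of 30 other replication fork and origin genes 24 were lower and 0 higher (median log2 ratio -1.23), led by TOP2A, the topoisomerase that untangles DNA (-2.73), and TIMELESS (-2.69). Of 31 other nucleotide genes 22 were lower and 3 higher (median -0.77), and CAD, which starts pyrimidine synthesis, was at -1.98. All 24 mitotic genes were lower (median -2.44). Among 30 G1/S regulators 21 were lower and 6 higher (median -0.83). E2F2, a transcription factor of the G1/S switch, averaged 0.697 ± 0.162 CPM in LM2 caMKL1 cells and 6.64 ± 2.12 CPM in LM2 control cells, and CDKN1A, an inhibitor of cyclin-dependent kinases, 479 ± 78.5 CPM in LM2 caMKL1 cells and 15.3 ± 1.63 CPM in LM2 control cells. In 4T1 caMKL1 cells 24 of the 30 fork and origin genes were lower and 4 higher (median -0.50), and 18 of 24 mitotic genes lower and 3 higher (median -0.38). Of the 29 nucleotide genes tested there 22 were lower and 3 higher (median -0.52), and of the 30 G1/S regulators 17 were lower and 11 higher (median -0.24). Cdkn1a there went the opposite way from LM2, averaging 4.68 ± 0.492 CPM in 4T1 caMKL1 cells and 18.8 ± 0.0634 CPM in 4T1 control cells. CDKN1B, of the same list, went the same way in both lines, with caMKL1 log2 ratios of 2.16 in LM2 and 0.81 in 4T1. Ccnd1, a G1 cyclin, averaged 134 ± 4.81 CPM in 4T1 caMKL1 cells and 885 ± 5.94 CPM in 4T1 control cells. In LifeAct high cells 24 of the 30 fork and origin genes were higher and 1 lower (median 0.84), 23 of 24 mitotic genes higher and 0 lower (median 0.92), 24 of 31 nucleotide genes higher and 2 lower (median 0.65), 24 of 30 G1/S regulators higher and 5 lower (median 1.01), and E2F1, an activating E2F, was at 2.38. Of 24 S phase checkpoint and recombination genes, 17 were lower and 3 higher in LM2 caMKL1 cells (median -1.09), 15 lower and 4 higher in 4T1 caMKL1 cells (median -0.42), and 20 higher and 3 lower in LifeAct high cells (median 0.83). In LM2 MKL1 cells 2 of the 30 fork and origin genes were higher and 0 lower, beside 7.25% and 4.74% of all genes. In 4T1 MKL1 cells 21 were lower and 0 higher, beside 15% and 19.3% of all genes.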

How the data were processed

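Raw counts, 1 per read pair and gene name, were deposited by the authors. Per the file headers, featureCounts v2.0.1 made them from STAR alignments, with annotation from Ensembl GRCh38 release 103 or GRCm38 release 102, and no strand option was set. The 27 libraries were 150 bp paired-end, per the labels' protocols. Totals per library spanned 22147429 to 32147377 (LM2), 21896459 to 29370432 (4T1) and 15581289 to 23678322 (LifeAct).

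In each table names passing filterByExpr (minimum count 10) were scaled by TMM and tested by quasi-likelihood F tests (edgeR 4.0.16, R 4.3.3, a mean per group, 9 libraries, Benjamini-Hochberg over all names, threshold 0.05, prior count 0.125). Alternatives were DESeq2 1.42.0, limma 3.58.1 voom, DESeq2 size factors, library totals, no filter, a replicate block, only the groups compared, and leaving out libraries. The code was tested on simulated data. Members and lists were chosen with earlier results of these data known. Per-library values are printed for 15 fixed members and the 3 lowest and highest of a comparison, with a few added after their values were seen.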

Additional observations from a re-analysis of the deposited data

Results flagged for a closer look

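The response to caMKL1 differed between 4T1 and LM2 cells in 44 of the 49 genes, where 60.3% of all genes differed, by the test of the difference of log2 ratios (4T1 minus LM2). The largest differences were 2.6875 for GINS2 and 2.3952 for ASF1B, and -1.0855 for TK1 and -0.55108 for POLA1, which had the lower ratio in 4T1. GINS2 was lower in LM2 caMKL1 cells (log2 ratio -2.55) and higher in 4T1 caMKL1 cells (0.27), each against control in the separate fit of its line. With library totals the POLA1 difference was -0.20 (edgeR adjusted p = 0.0933). In 4T1, Gins2 shares 67.3% of its exon bases with a gene on the other strand. The response to MKL1 differed in 34 members, all with the lower ratio in 4T1, where 19.9% of all genes differed. These differences ran from -0.99204 for RRM2 and -0.85358 for CDT1 to -0.34725 for POLE and -0.25345 for RRM1. POLE and RRM1 did not pass with library totals (edgeR adjusted p = 0.141 and 0.136) or in 8 and 9 of 12 fits with 1 library left out, while RRM2 and CDT1 passed in each. The lines also differ in species. Against control, the MRTFA row had a log2 ratio of 3.90 in LM2 MKL1 and 5.78 in 4T1 MKL1 cells. For caMKL1 it was 4.34 in LM2 and 4.00 in 4T1 cells. Line and species cannot be told apart, and the part of the construct level was not tested.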

How the results depend on the processing

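The count of members called stayed within 1.5 times its value in all comparisons and alternatives except LM2 MKL1 against control, where 5 became 9 with DESeq2, 8 with DESeq2 size factors, 1 with library totals, 12 with no filter, 12 with the replicate block, 2 with only the groups compared and 0 to 10 with 1 library left out. Voom called the same number as the main test in all 9 comparisons. Deviations of same-numbered libraries correlated between -0.013 and 0.398 (LM2), -0.038 and 0.274 (4T1), and -0.043 and 0.0145 (LifeAct). Those of libraries with unlike numbers ran from -0.434 to 0.271, -0.172 to 0.105 and -0.066 to 0.0588. The same-numbered range thus lay higher in LM2 and 4T1, so an effect shared by replicate number is possible there. The main test did not pair the samples. With the block 3258 of all genes were called in LM2 MKL1 against control, beside 2265 in the main test. Other than the 12 given above, the block moved no count of members by over 1.5 times. With library totals the median member ratio was -2.285 for LM2 caMKL1 against control, -2.36 for LM2 caMKL1 against MKL1, -0.883, -0.3255 and -0.5575 for 4T1 caMKL1 against control, MKL1 against control and caMKL1 against MKL1, and 1.375, 1.269 and 0.1741 for LifeAct high against negative, low against negative and high against low. That scaling moved the median of all genes to -0.46 in LM2 caMKL1 and -0.21 in 4T1 caMKL1 against control, so relative to it the members changed about as before. It also moved the share of higher among all genes called by over 10 points in the 3 LM2 and 3 4T1 comparisons, LifeAct high against low and the caMKL1 difference between lines, whose splits stand beside their counts, and by less in the other 3. DESeq2 size factors moved it by at most 5.3 points. No filter gave -0.7316 for 4T1 caMKL1 against control, and only the groups compared gave 1.241 for LifeAct low against negative and 0.2339 for high against low. With 1 library left out the median was -2.11 to -1.914 for LM2 caMKL1 against MKL1, -0.7403 to -0.6727, -0.2875 to -0.2429 and -0.4624 to -0.395 for the 3 4T1 comparisons in the order above, and 1.369 to 1.455, 1.184 to 1.242 and 0.2293 to 0.288 for the LifeAct ones. With library totals RPA3 in 4T1 caMKL1 against control came to -0.01319, and MCM4 and CLSPN in the caMKL1 difference between lines to 0.09364 and 0.05125. The cause of these shifts was not tested beyond the scaling itself. POLA2 had under 1 CPM in LM2 caMKL1 cells, which limits what can be said of it there.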
